A study of Homo sapiens with 8 samples.

Results

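The genes around FGFR1 on the short arm of chromosome 8, in bands 8p12-p11, were followed as 50 listed members from UNC5D, the most distal, to HGSNAT, the most proximal, between positions 35235475 and 43202855 of GRCh38. They were listed by symbol and position, with earlier results of these data known, and FGFR1 itself, at positions 38400215 to 38468834 on the minus strand, served as the reference point and was not a member. Of the 50 members, 44 had 10 or more counts when the 8 libraries were summed, among 18203 such genes in a table of 37441 genes. RNA was measured in a pair of cell lines from lung carcinomas of the non-small cell kind, NCI-H1581 and NCI-H1703, which are sensitive to the FGFR inhibitor CPL304110, and in the resistant variants NCI-H1581R and NCI-H1703R. The variants had been selected from these lines in concentrations of CPL304110 that rose from 50 nM to 2.5 µM for NCI-H1581R and to 5 µM for NCI-H1703R, and the sensitive lines had not. Each of the 4 variants gave 2 libraries from repeated cultures of 1 selected or parental population, so a p-value measures the spread between these cultures. NCI-H1581 cells were kept in DMEM/F12 and NCI-H1703 cells in RPMI 1640, so line and medium cannot be told apart, and the sources used here do not state whether the medium at harvest held the inhibitor.

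FGFR1 encodes a receptor tyrosine kinase that binds fibroblast growth factors at the cell surface and passes the signal to the MAPK and PI3K pathways. The band that holds it is a recurrent site of DNA amplification in lung and breast tumours, and an amplified stretch usually carries neighbouring genes along with the one that drives growth. The neighbours have unrelated jobs: they include chromatin regulators (ASH2L, NSD3, KAT6A), an inhibitor of cap-dependent translation (EIF4EBP1), membrane proteases (ADAM9), lipid enzymes (DDHD2, PLPP5, GPAT4), a kinase of the NF-κB pathway (IKBKB) and secreted modulators of Wnt signalling (SFRP1, DKK4). The members are described below by position, in groups that run from the telomeric to the centromeric side.

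Library totals lay between 33800389 and 40031710 counts, at which 3 counts correspond to 0.0749 to 0.0897 CPM. CPM values are counts relative to the library total, scaled with TMM factors. The labelled lung carcinoma origin was checked against marker genes: VIM had means of 2852 to 6404 CPM over the 4 variants, the squamous keratins KRT5, KRT6A and KRT14 and the desmosomal DSG3 had means under 1 CPM, and the alveolar marker SFTPC was at 0. The other markers were mixed. Among epithelial genes, mean levels in NCI-H1581 and NCI-H1703 were 14.5 and 0.456 CPM for EPCAM, 1.58 and 64.9 CPM for KRT18, and 0.841 and 1.12 CPM for CDH1. Among mesenchymal genes they were 1.02 and 9.61 CPM for FN1, 2.85 and 49.4 CPM for CDH2, and 1.98 and 32.1 CPM for ZEB1. TP63 and NKX2-1 were present in the NCI-H1581 line, at means of 6.03 and 14.3 CPM in NCI-H1581 and 29.5 and 49.8 CPM in NCI-H1581R. Some of these levels moved with resistance. Of the 4 mesenchymal genes, 2 had higher and 2 lower means in NCI-H1581R than in NCI-H1581. FN1 and ZEB1 were higher there, at 832 and 25.3 CPM, and VIM and CDH2 lower, at 4334 and 1.08 CPM. In NCI-H1703R all 4 had lower means than in NCI-H1703, with CDH2 at 1.12 CPM. The summed level of 4 fibroblast genes (COL1A1, DCN, LUM, PDGFRA) was 208.7 to 209.7 CPM in NCI-H1581 and 23.6 to 35.03 CPM in NCI-H1581R, lower for 4 of 4 genes, though PDGFRA was close to level (means of 1.23 and 1.13 CPM). That of 5 epithelial genes was 73.3 to 75.6 CPM in NCI-H1703 and 6.76 to 8.41 CPM in NCI-H1703R, and most of this was 1 gene, KRT18 (means of 64.9 and 2.68 CPM); the other 4 had means of 0.456 to 5.83 CPM in NCI-H1703 and 0.370 to 2.63 CPM in NCI-H1703R. Of the 4 fibroblast genes none was at 0 in all libraries, and the part of these shifts in the results below was not tested. In RNA from bulk cultures, fewer cells expressing a gene and less RNA per cell cannot be told apart.

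Members ranged from genes with 0 counts to ADAM9 at 974 CPM in an NCI-H1703 library. Of the 44 with at least 10 counts in total, 35 had at least 10 counts in every library. Per kilobase of annotated exon, EIF4EBP1, which encodes the translation inhibitor 4E-BP1, had the highest level of all members in all 4 variants, with 293 ± 21.5 CPM per kb in NCI-H1581, 116 ± 17.1 in NCI-H1581R, 383 ± 0.123 in NCI-H1703 and 257 ± 32.5 in NCI-H1703R (mean ± SD, n = 2). The next member in NCI-H1581 was VDAC3, a channel of the outer mitochondrial membrane, at 79.9 ± 0.283 CPM per kb, followed by PLPBP at 52.3 ± 1.36 and LSM1 at 34.97 ± 1.07, and each of these differed from its neighbour in the order by more than their spread. In NCI-H1703 the order was different: LSM1 (61.6 ± 3.06 CPM per kb), ADAM9 (53.6 ± 1.92) and TM2D2 (53.0 ± 3.22) came next, of which ADAM9 and TM2D2 did not differ beyond their spread. FGFR1 stood at 10.99 ± 1.497 CPM per kb in NCI-H1581 and at 47.8 ± 1.42 in NCI-H1703. Exon lengths join all annotated transcripts of a gene, so levels per kb are understated for genes that use short transcripts.

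At the other end, 6 members did not reach 10 counts in total. KCNU1 (a sperm potassium channel), GOT1L1 and ZMAT4 had 0 counts in all 8 libraries, and 0 counts allow a level of up to 0.0897 CPM. ADRB3, the beta-3 adrenergic receptor, had 3 counts in 1 NCI-H1581 library and none elsewhere. STAR, which carries cholesterol into mitochondria, had 2 and 1 counts in NCI-H1703 and 0 and 3 in NCI-H1703R, and NKX6-3 had 1 count in each of 2 libraries of the NCI-H1581 line. TCIM, just above the minimum with 15 counts in total, had 2 and 1 in NCI-H1703, 4 and 8 in NCI-H1703R and 0 in the other 4 libraries. These genes had little or no RNA in either line.

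**Figure D1:**
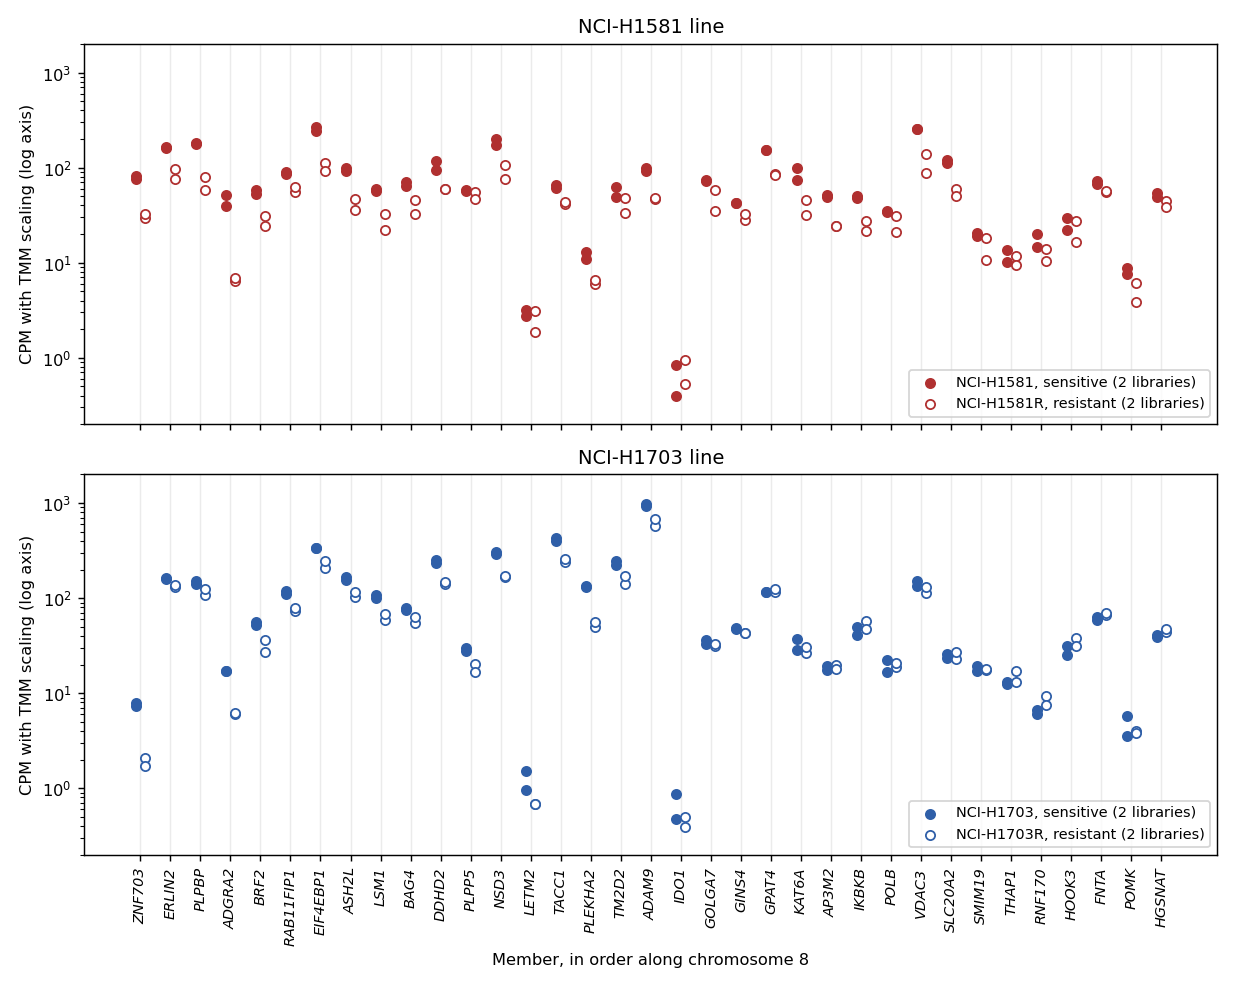
Level of the 35 members with at least 10 counts in every library, in CPM with TMM scaling on a log axis, in order along chromosome 8, with 1 point per library (filled, sensitive; open, resistant) and no averaging. In the NCI-H1581 line the open points lie below the filled ones for most members from ZNF703 to SLC20A2, and in the NCI-H1703 line from ZNF703 to ADAM9, while from GOLGA7 onward the points of the variants of that line lie close together.

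The first comparison asks how the RNA of these genes differed between NCI-H1581R and its sensitive parent. Among the 44 members tested, 23 fell and 0 rose in NCI-H1581R (edgeR's quasi-likelihood test, Benjamini-Hochberg adjusted p under 0.1), whereas 7.44% of all 18203 genes tested fell and 7.63% rose. The median log2 fold change was -0.84 over the members and 0.04 over all genes, and 39 of the 44 members lay below 0. No member was higher at an unadjusted p under 0.05 or by DESeq2. The counts varied along the arm. From ZNF703 to EIF4EBP1, 7 of 7 members tested fell (median log2 fold change -1.33), from ASH2L to LETM2 5 of 7 (-0.83), from TACC1 to ADAM32 3 of 6 (-0.50), from IDO1 to SFRP1 0 of 4, and from GOLGA7 to HGSNAT 8 of 19 (-0.71), with all 19 below 0. UNC5D, the most distal member, had 3 and 12 counts in NCI-H1581 and 3 and 2 in NCI-H1581R and did not pass the test.

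The number of calls changed with the library left out. In each such fit the spread came from the variant that kept both libraries. Without NCI-H1581 replicate 1 there were 8 members called and without NCI-H1581 replicate 2 there were 6, and ZNF703, PLPBP, ADGRA2, EIF4EBP1, PLAT and DKK4 were called in both of these fits, while leaving out an NCI-H1581R library gave 25 or 27. All 23 members kept a log2 fold change below 0 whichever library was left out. With the replicate number as a block, 24 members fell, the 23 and GOLGA7 (adjusted p = 0.0968, against 0.177 without the block), where 8.88% of all genes fell and 9.21% rose.

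In NCI-H1703R, 15 of the 44 members fell and 0 rose by the same test, against 7.67% of all genes that fell and 7.06% that rose. The median log2 fold change was -0.26 over the members and 0.00 over all genes. All 15 lay between ZNF703 and ADAM9: 5 of 7 members fell from ZNF703 to EIF4EBP1 (median -0.57), 6 of 7 from ASH2L to LETM2 (-0.66) and 4 of 6 from TACC1 to ADAM32 (-0.57). From IDO1 to SFRP1 0 of 4 were called, and from GOLGA7 to HGSNAT 0 of 19, also at an unadjusted p under 0.05 and by DESeq2, with a median log2 fold change of 0.05. Over the 19 members tested from ZNF703 to ADAM9 the median was -0.91 in NCI-H1581R and -0.60 in NCI-H1703R, and 15 of them fell in each line. The ends of this span are the outermost members called in NCI-H1703R. Its count and median in that line therefore follow from the calls and are given as description only. In all, 13 members fell in both lines, and the share of all genes that fell in both is not given here.

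Here too, fewer members were called when an NCI-H1703 library was left out than when an NCI-H1703R library was. The spread again came from the variant that kept both libraries. The log2 fold change of each of the 15 stayed below 0 in all 4 of these fits. With the replicate number as a block, 19 members fell and 5 rose, where 16.7% of all genes fell and 18.2% rose. The 4 additional members that fell were ERLIN2, PLPBP, SFRP1 and VDAC3, and the 5 that rose under the block, IKBKB, RNF170, HOOK3, FNTA and HGSNAT, all lie from GOLGA7 to HGSNAT and had log2 fold changes of 0.18 to 0.43.

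**Figure D2:**
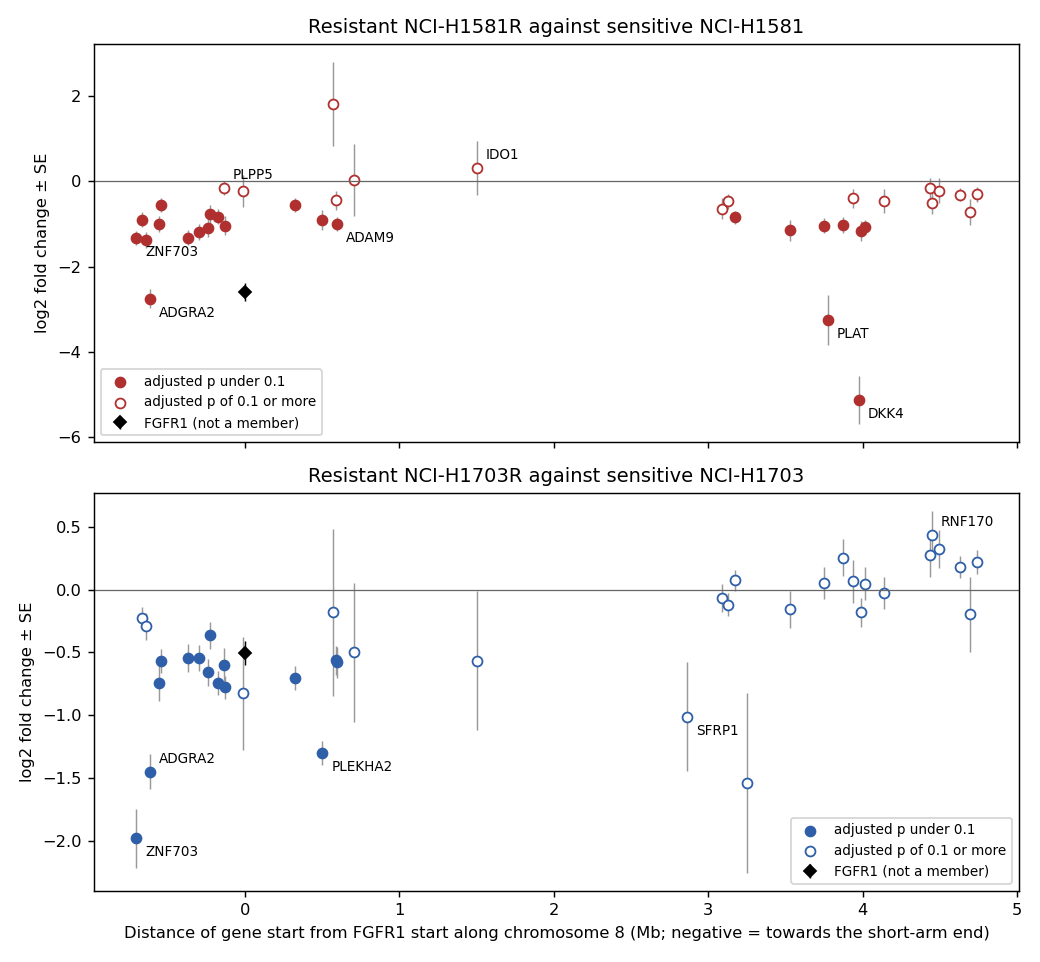
log2 fold change (± SE, from edgeR) of resistant against sensitive cells, plotted against the distance of each gene's start from that of FGFR1 in Mb, for members with at least 10 counts in both libraries of at least 1 variant of the line (filled, adjusted p under 0.1; black diamond, FGFR1). In NCI-H1581R called members lie within 1 Mb of FGFR1 and again beyond 3 Mb on the proximal side, with DKK4 at -5.14 lowest, and in NCI-H1703R the called members lie within 1 Mb of FGFR1, with ZNF703 at -1.98 lowest. The 2 vertical axes differ in scale.

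On the distal side, the group from ZNF703 to EIF4EBP1 held the members that fell most among those near FGFR1. Summed over the group, RNA was 896 and 838 CPM in the 2 NCI-H1581 libraries and 412 and 352 CPM in NCI-H1581R, and 827 and 849 CPM in NCI-H1703 and 557 and 631 CPM in NCI-H1703R. ADGRA2, an adhesion G protein-coupled receptor also known as GPR124 that acts with Wnt ligands in brain vessels, stood at 51.7 and 39.4 CPM in NCI-H1581 and 6.43 and 6.96 CPM in NCI-H1581R. In the other line it stood at 17.1 and 17.1 CPM in NCI-H1703 and 6.08 and 6.18 CPM in NCI-H1703R, and the libraries of the variants did not overlap in either line. ADGRA2 fell 6.74-fold in NCI-H1581R (-2.75 ± 0.22 on the log2 scale, with an adjusted p = 0.000612, edgeR) and 2.73-fold in NCI-H1703R (-1.45 ± 0.14, adjusted p = 0.00419). ZNF703, a transcriptional repressor that is a known target of amplification in luminal breast cancer, stood at 82.6 and 75.5 CPM in NCI-H1581 and 29.8 and 32.5 CPM in NCI-H1581R, and at 7.41 and 7.86 CPM in NCI-H1703 and 2.06 and 1.72 CPM in NCI-H1703R. Its fall was 2.52-fold in NCI-H1581R (-1.33 ± 0.17, adjusted p = 0.00393, edgeR) and 3.95-fold in NCI-H1703R (-1.98 ± 0.23, adjusted p = 0.00751). ADGRA2 and BRF2 share 1629 exon bases on opposite strands, and since no strand setting is given in the sources used here, reads in that stretch could be counted for either gene.

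The remaining members of the distal group fell by less than ADGRA2 in both lines where they were called. EIF4EBP1 stood at 271 and 244 CPM in NCI-H1581 and 113 and 91.4 CPM in NCI-H1581R, and at 337 and 337 CPM in NCI-H1703 and 206 and 247 CPM in NCI-H1703R. Its log2 fold change was -1.33 ± 0.18 in NCI-H1581R and -0.54 ± 0.11 in NCI-H1703R. BRF2, a subunit of the RNA polymerase III initiation factor TFIIIB, stood at 57.9 and 53.3 CPM in NCI-H1581 and 31.3 and 24.2 CPM in NCI-H1581R, and at 55.7 and 52.4 CPM in NCI-H1703 and 27.0 and 36.4 CPM in NCI-H1703R, with log2 fold changes of -0.99 ± 0.19 and -0.74 ± 0.15. RAB11FIP1, an effector of RAB11 in endosome recycling, stood at 86.0 and 89.1 CPM in NCI-H1581 and 55.6 and 62.3 CPM in NCI-H1581R, and at 112 and 120.0 CPM in NCI-H1703 and 74.1 and 78.7 CPM in NCI-H1703R. Its changes were close to each other in the 2 lines, -0.56 ± 0.16 and -0.57 ± 0.09. These 3 genes, with ADGRA2 and ZNF703, passed the test in both lines. PLPBP, a pyridoxal phosphate binding protein, stood at 182 and 176 CPM in NCI-H1581 and 79.1 and 58.2 CPM in NCI-H1581R, and at 139.6 and 151 CPM in NCI-H1703 and 109 and 124 CPM in NCI-H1703R. ERLIN2, an endoplasmic reticulum protein that takes part in the degradation of IP3 receptors, stood at 164 and 161 CPM in NCI-H1581 and 96.9 and 76.4 CPM in NCI-H1581R, and at 159 and 164 CPM in NCI-H1703 and 132 and 138 CPM in NCI-H1703R. PLPBP and ERLIN2 fell in NCI-H1581R (-1.38 ± 0.20 and -0.90 ± 0.18), and in NCI-H1703R their log2 fold changes of -0.29 ± 0.10 and -0.23 ± 0.09 did not pass the test (adjusted p = 0.16 and 0.18, edgeR). Their libraries did not overlap there, which is weak evidence with 2 libraries against 2. With the replicate block both genes passed in NCI-H1703R (adjusted p = 0.0062 and 0.0211, edgeR).

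Directly distal to FGFR1, the group from ASH2L to LETM2 summed to 547 and 605 CPM in NCI-H1581, 319 and 306 CPM in NCI-H1581R, 889 and 939 CPM in NCI-H1703 and 545 and 581 CPM in NCI-H1703R. NSD3, a histone H3 lysine methyltransferase also known as WHSC1L1, stood at 175 and 201 CPM in NCI-H1581 and 75.4 and 107 CPM in NCI-H1581R, and at 290.0 and 303 CPM in NCI-H1703 and 168 and 170.1 CPM in NCI-H1703R. It fell in both lines, with log2 fold changes of -1.04 ± 0.22 and -0.78 ± 0.09 (adjusted p = 0.0323 and 0.00696, edgeR). ASH2L, a core subunit of MLL-type methyltransferase complexes, stood at 91.6 and 98.9 CPM in NCI-H1581 and 47.3 and 36.1 CPM in NCI-H1581R, and at 156 and 167 CPM in NCI-H1703 and 102 and 115 CPM in NCI-H1703R. LSM1, a subunit of the ring that directs mRNA decapping, stood at 59.9 and 57.4 CPM in NCI-H1581 and 32.3 and 22.3 CPM in NCI-H1581R, and at 99.7 and 107 CPM in NCI-H1703 and 59.6 and 68.5 CPM in NCI-H1703R. Both fell in both lines: ASH2L by 2.27-fold in NCI-H1581R and 1.46-fold in NCI-H1703R, and LSM1 by 2.13-fold and 1.58-fold. BAG4, a co-chaperone that holds death receptors silent, stood at 63.4 and 71.1 CPM in NCI-H1581 and 46.0 and 32.2 CPM in NCI-H1581R, and at 75.0 and 79.5 CPM in NCI-H1703 and 54.6 and 62.9 CPM in NCI-H1703R. DDHD2, a triglyceride lipase, stood at 95.5 and 118 CPM in NCI-H1581 and 59.7 and 60.0 CPM in NCI-H1581R, and at 237 and 253 CPM in NCI-H1703 and 139.8 and 147 CPM in NCI-H1703R. For BAG4 the fall was near the threshold in NCI-H1703R (adjusted p = 0.0996, edgeR), whereas DDHD2 fell by 1.77-fold and 1.68-fold. Exons of DDHD2 and NSD3 overlap by 545 bases on opposite strands, and those of LSM1 and BAG4 by 198.

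PLPP5, a lipid phosphatase whose gene lies within the span of DDHD2 on the opposite strand, had another pattern. It stood at 58.4 and 56.3 CPM in NCI-H1581 and 55.6 and 46.9 CPM in NCI-H1581R, and at 29.9 and 28.1 CPM in NCI-H1703 and 20.5 and 16.9 CPM in NCI-H1703R. In NCI-H1581R its log2 fold change was -0.15 ± 0.17 and it did not pass the test (adjusted p = 0.654, edgeR), while in NCI-H1703R it fell by 1.52-fold (-0.60 ± 0.14, adjusted p = 0.0523). The difference between the lines, -0.47 ± 0.21, did not pass its own test (adjusted p = 0.218). LETM2, a mitochondrial inner membrane protein and the nearest member to FGFR1, was low, at 3.15 and 2.77 CPM in NCI-H1581 and 3.14 and 1.88 CPM in NCI-H1581R, and at 1.51 and 0.957 CPM in NCI-H1703 and 0.687 and 0.686 CPM in NCI-H1703R. Its log2 fold changes, -0.23 ± 0.38 and -0.83 ± 0.45, did not pass the test, and 138 exon bases are shared with FGFR1 on the opposite strand. FGFR1 itself, for reference, changed by -2.59 ± 0.21 in NCI-H1581R and by -0.51 ± 0.10 in NCI-H1703R on the log2 scale. In NCI-H1581R its fall of 6.02-fold was larger than that of any of the 9 nearest tested members, and in NCI-H1703R its fall of 1.42-fold was within their range.

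Proximal to FGFR1, the group from TACC1 to ADAM32 was, among the groups with a sum over 10 CPM, the one whose sum differed most between the lines. Its sum was 238 and 216 CPM in NCI-H1581, 143 and 132 CPM in NCI-H1581R, 1683 and 1779 CPM in NCI-H1703 and 1002 and 1159 CPM in NCI-H1703R. ADAM9, a membrane metalloprotease that sheds cell surface proteins, gave the largest share and stood at 99.3 and 91.3 CPM in NCI-H1581 and 46.8 and 47.5 CPM in NCI-H1581R, and at 926 and 974 CPM in NCI-H1703 and 570.0 and 676 CPM in NCI-H1703R. TACC1, a coiled-coil protein of microtubules, stood at 64.9 and 61.3 CPM in NCI-H1581 and 41.3 and 43.7 CPM in NCI-H1581R, and at 400.0 and 426 CPM in NCI-H1703 and 240.0 and 257 CPM in NCI-H1703R. PLEKHA2, an adaptor with pleckstrin homology domains, stood at 10.98 and 12.8 CPM in NCI-H1581 and 6.03 and 6.55 CPM in NCI-H1581R, and at 131 and 134 CPM in NCI-H1703 and 49.9 and 55.5 CPM in NCI-H1703R. These 3 genes fell in both lines, ADAM9 by 2.01-fold and 1.49-fold, TACC1 by 1.47-fold and 1.63-fold, and PLEKHA2 by 1.88-fold and 2.46-fold (NCI-H1581R and NCI-H1703R in turn). PLEKHA2 in NCI-H1703R had the smallest adjusted p of any member in that line (0.00172, edgeR). TM2D2, a transmembrane protein with little known function, stood at 62.3 and 49.7 CPM in NCI-H1581 and 48.4 and 33.2 CPM in NCI-H1581R, and at 225 and 245 CPM in NCI-H1703 and 141 and 170.0 CPM in NCI-H1703R. It fell in NCI-H1703R (-0.56 ± 0.12) and did not pass the test in NCI-H1581R (-0.45 ± 0.23, adjusted p = 0.296, edgeR). HTRA4, a serine protease, and ADAM32, a relative of ADAM9 that is known from testis, were under 1.1 CPM in all 8 libraries.

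A stretch of about 2 Mb between ADAM32 and GOLGA7 held little RNA. IDO1 and IDO2, which open the kynurenine pathway of tryptophan breakdown, stood at 0.396 to 0.940 CPM and at 0 to 0.185 CPM over the 8 libraries. SFRP1, a secreted Wnt antagonist, had 15 and 4 counts in NCI-H1581, 4 and 3 in NCI-H1581R, 45 and 51 in NCI-H1703 and 21 and 29 in NCI-H1703R. The whole group from IDO1 to SFRP1 summed to at most 2.24 CPM in any library, and 0 of its 4 tested members were called in either resistant variant.

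Nearest the centromere, the group from GOLGA7 to HGSNAT held members that fell in NCI-H1581R and none that were called in NCI-H1703R. It summed to 1069 and 1093 CPM in NCI-H1581 and 645 and 567 CPM in NCI-H1581R, but to 654 and 654 CPM in NCI-H1703 and 645 and 669.9 CPM in NCI-H1703R. GPAT4, which starts glycerolipid synthesis, stood at 152 and 153 CPM in NCI-H1581 and 85.1 and 83.3 CPM in NCI-H1581R, and at 117 and 116 CPM in NCI-H1703 and 117 and 123 CPM in NCI-H1703R. VDAC3 stood at 254 and 255 CPM in NCI-H1581 and 139 and 86.8 CPM in NCI-H1581R, and at 133 and 151 CPM in NCI-H1703 and 115 and 131 CPM in NCI-H1703R. SLC20A2, a phosphate transporter, stood at 121 and 113 CPM in NCI-H1581 and 59.8 and 50.7 CPM in NCI-H1581R, and at 25.8 and 23.7 CPM in NCI-H1703 and 22.7 and 27.4 CPM in NCI-H1703R. In each of these the NCI-H1581 libraries lay above those of NCI-H1581R, and the NCI-H1703 libraries lay close to or among those of NCI-H1703R. KAT6A, a histone acetyltransferase known as MOZ, stood at 73.3 and 98.6 CPM in NCI-H1581 and 31.7 and 45.4 CPM in NCI-H1581R, and at 36.9 and 28.5 CPM in NCI-H1703 and 26.7 and 30.8 CPM in NCI-H1703R. AP3M2, a subunit of the AP-3 adaptor, stood at 48.7 and 51.7 CPM in NCI-H1581 and 24.5 and 24.2 CPM in NCI-H1581R, and at 19.4 and 17.6 CPM in NCI-H1703 and 19.7 and 17.8 CPM in NCI-H1703R. IKBKB, the catalytic subunit IKKβ of the NF-κB pathway, stood at 48.5 and 50.7 CPM in NCI-H1581 and 21.4 and 27.2 CPM in NCI-H1581R, and at 49.6 and 40.8 CPM in NCI-H1703 and 58.2 and 47.3 CPM in NCI-H1703R. All 6 fell in NCI-H1581R, by 1.80-fold (GPAT4) to 2.24-fold (VDAC3), and had log2 fold changes of -0.18 (VDAC3) to 0.26 (IKBKB) in NCI-H1703R, where they did not pass the test.

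In NCI-H1581R, DKK4 and PLAT had the lowest log2 fold changes of the members. DKK4, a secreted Wnt inhibitor of the Dickkopf family, had 626 and 385 counts in NCI-H1581 (18.6 and 9.61 CPM) and 9 and 21 in NCI-H1581R (0.239 and 0.533 CPM). That is a 35.3-fold fall (log2 fold change -5.14 ± 0.56, adjusted p = 0.00237, edgeR), and the 2 NCI-H1581 libraries themselves differed. Leaving out 1 library moved it to between -4.62 (without NCI-H1581 replicate 1) and -5.85 (without NCI-H1581R replicate 2), and it passed the test each time. In the NCI-H1703 line DKK4 had 1 count in 1 library and 0 in the other 3. PLAT, the tissue plasminogen activator, had 92 and 84 counts in NCI-H1581 and 6 and 13 in NCI-H1581R, a 9.53-fold fall (-3.25 ± 0.58, adjusted p = 0.017, edgeR), and 14 and 4 in NCI-H1703 and 11 and 8 in NCI-H1703R. In NCI-H1581R its log2 fold change lay between -2.83 (without NCI-H1581R replicate 1) and -3.89 (without NCI-H1581R replicate 2) when 1 library was left out.

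The other 11 tested members from GOLGA7 to HGSNAT were not called in either resistant variant: GOLGA7, GINS4, ANK1, POLB, SMIM19, THAP1, RNF170, HOOK3, FNTA, POMK and HGSNAT. They include the DNA repair polymerase POLB, the replication factor GINS4, the shared farnesyltransferase subunit FNTA and the lysosomal enzyme HGSNAT. Their log2 fold changes in NCI-H1581R ran from -1.54 (ANK1, at most 28 counts in a library) to -0.15 (THAP1), all below 0. In NCI-H1703R they ran from -1.54 (ANK1) to 0.43 (RNF170). FNTA and HOOK3 share exon bases with a readthrough gene on the same strand, and SLC20A2 and SMIM19 share 278 on opposite strands, so these counts are less certain.

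**Figure D3:**
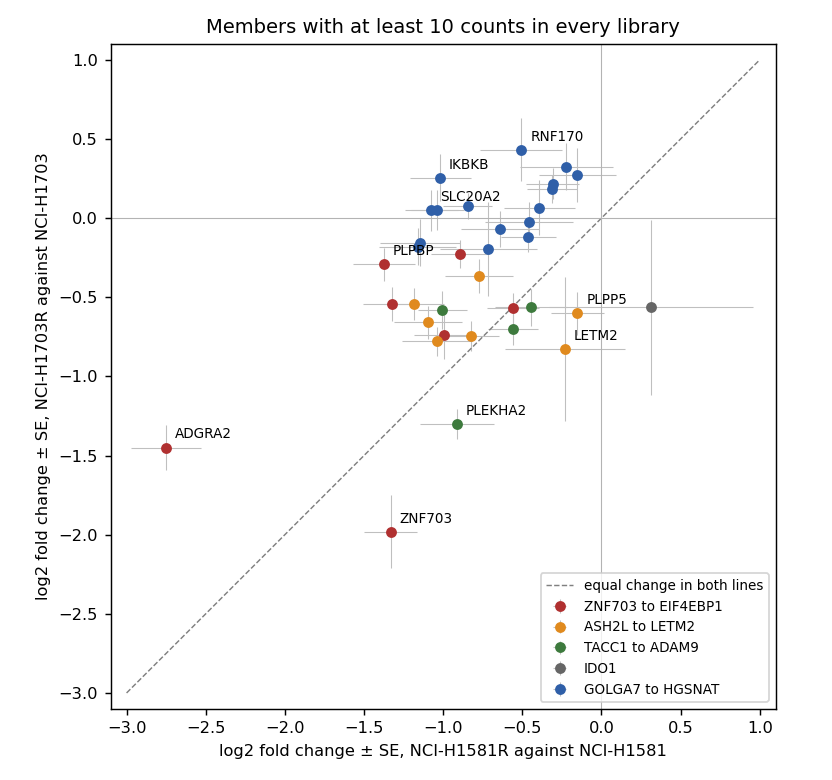
log2 fold change of resistant against sensitive cells in the NCI-H1581 line (horizontal) and in the NCI-H1703 line (vertical), each ± SE from edgeR, for the 35 members with at least 10 counts in every library, coloured by position group; the dashed line marks equal change. The members from GOLGA7 to HGSNAT lie above the dashed line, between -1.16 and -0.15 horizontally and between -0.20 and 0.43 vertically, while ADGRA2, ZNF703 and PLEKHA2 lie farthest down.

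Whether the change with resistance differed between the lines was tested directly as an interaction in 1 fit of all 8 libraries, where a value above 0 means a higher log2 fold change in NCI-H1703R than in NCI-H1581R. Of the 44 members 9 were called above 0 and 0 below, against 6.93% and 8.47% of all genes. Of the 9, 4 lie distal to FGFR1, namely ADGRA2 (1.28 ± 0.26), PLPBP (1.06 ± 0.23), EIF4EBP1 (0.76 ± 0.21) and ERLIN2 (0.65 ± 0.19). The other 5 lie from GOLGA7 to HGSNAT: IKBKB (1.25 ± 0.24), SLC20A2 (1.103 ± 0.21), AP3M2 (1.07 ± 0.18), VDAC3 (0.96 ± 0.29) and GPAT4 (0.90 ± 0.15). Their adjusted p ran from 0.007 to 0.0794 (edgeR's quasi-likelihood test). With a replicate block shared by the 2 lines VDAC3 was no longer called (adjusted p = 0.123, edgeR). Replicate differences correlated negatively across the lines (r of -0.42 to -0.02), which a shared block does not model. When 1 library was left out, ERLIN2 and VDAC3 were called only without an NCI-H1581R library and EIF4EBP1 only without one of these or NCI-H1703R replicate 1, while the other 6 were called in all 8 such fits. Of the 13 tested members from ASH2L to ADAM32, 0 were called by edgeR, 1 had an unadjusted p under 0.05 (ASH2L, 0.62 ± 0.21), and DESeq2 called ASH2L and ADAM9. The difference was 0.06 ± 0.18 for DDHD2, -0.16 ± 0.16 for TACC1 and 0.41 ± 0.19 for ADAM9. It was 0.41 ± 0.25 for LSM1, 0.39 ± 0.25 for BAG4 and -0.47 ± 0.21 for PLPP5. The standard error was widest of these for LETM2 (-0.62 ± 0.61). ZNF703, which had fallen further in NCI-H1703R, had a difference of -0.67 ± 0.24 that did not pass (adjusted p = 0.128). For FGFR1 the difference was 2.06 ± 0.23. DESeq2 called 17 members in this comparison, 16 above 0 and ZNF703 below.

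Between the sensitive lines, 11 of 44 members were higher in NCI-H1703 and 18 were lower, where 32.5% of all genes were called higher and 30.4% lower, so the share of members called was near the background. By position, the split of directions was as follows. From TACC1 to ADAM32 4 of 6 members were higher and 0 lower (median log2 fold change 2.39), from ASH2L to LETM2 4 of 7 were higher and 2 lower (0.66), from ZNF703 to EIF4EBP1 2 of 7 were higher and 3 lower (-0.04), from IDO1 to SFRP1 1 of 4 was higher and 0 lower, and from GOLGA7 to HGSNAT 0 of 19 were higher and 12 lower (-0.83). The remaining called member was UNC5D. The 4 that were higher from TACC1 to ADAM32 were PLEKHA2 (11.1-fold), ADAM9 (9.98-fold), TACC1 (6.55-fold) and TM2D2 (4.21-fold), next to FGFR1 itself at 4.35-fold. Farther along, SFRP1 was higher by 2.39 ± 0.66 on the log2 scale (adjusted p = 0.0178, edgeR), on few counts: the value was 3.73 without NCI-H1581 replicate 1 and 1.61 without NCI-H1581 replicate 2. Closest to FGFR1 on its distal side, DDHD2 (1.20 ± 0.13 on the log2 scale), LSM1 (0.82 ± 0.10), ASH2L (0.76 ± 0.11) and NSD3 (0.66 ± 0.11) were higher in NCI-H1703, and PLPP5 (-0.98 ± 0.11) and LETM2 (-1.24 ± 0.37) were lower.

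Besides PLPP5 and LETM2, members called lower in NCI-H1703 lay in the distal group and from GOLGA7 onward. In the distal group ZNF703 was 10.4-fold lower (log2 fold change -3.37 ± 0.13, adjusted p = 8.6e-07, edgeR) and ADGRA2 2.65-fold lower. At the centromeric end SLC20A2 was 4.73-fold lower and AP3M2 2.72-fold lower. PLAT was 9.26-fold lower (-3.21 on the log2 scale), with 14 and 4 counts in NCI-H1703, and the value was -4.26 without NCI-H1703 replicate 1 and -2.67 without NCI-H1703 replicate 2. DKK4, with 626 and 385 counts in NCI-H1581 against 1 and 0, was also called lower. UNC5D, a netrin receptor, had 3 and 12 counts against 0 and 0 and reached the minimum of 10 counts through NCI-H1581, so its place among the 18 is given for completeness only. It was not called by DESeq2 (adjusted p = 0.143), and among the fits that left out 1 library edgeR called it only without NCI-H1581 replicate 1. No fold is given for DKK4 and UNC5D because NCI-H1703 had at most 1 count. ERLIN2 (-0.01 ± 0.09) and BRF2 (-0.04 ± 0.10), which lie between ZNF703 and RAB11FIP1, did not pass the test.

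**Figure D4:**
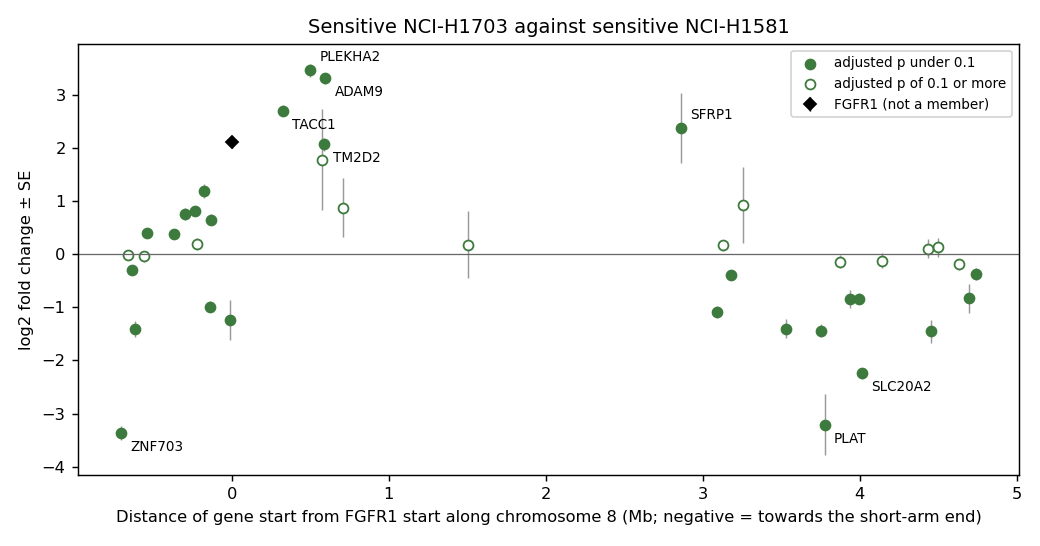
log2 fold change (± SE, from edgeR) of sensitive NCI-H1703 against sensitive NCI-H1581 by the distance of each gene's start from that of FGFR1 in Mb, for members with at least 10 counts in both libraries of at least 1 of the lines, without DKK4, which had at most 1 count in NCI-H1703 (filled, adjusted p under 0.1; black diamond, FGFR1). The highest points, PLEKHA2 at 3.47 and ADAM9 at 3.32, lie just proximal to FGFR1, and ZNF703 at -3.37 is the lowest.

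The interval was then set beside the rest of chromosome 8 in windows of 5 Mb. Most tested genes from 35 to 40 Mb and from 40 to 45 Mb are members, so these windows largely repeat the counts above. In NCI-H1581R the 28 tested genes from 35 to 40 Mb had a median log2 fold change of -0.90, with 18 called lower and 0 higher. The 22 genes from 40 to 45 Mb had a median of -0.68, with 8 lower and 0 higher. The windows to either side had medians of 0.31 (18 genes, 30 to 35 Mb) and -0.05 (7 genes, 45 to 50 Mb). In NCI-H1703R the window from 35 to 40 Mb had a median of -0.57, with 16 of 28 lower and 0 higher, and its neighbours were at -0.07 (30 to 35 Mb) and 0.03 (40 to 45 Mb), with 0 of 22 lower in the latter. Between UNC5D and HGSNAT only 6 tested genes were not members, FGFR1 among them. Of these, 3 were lower and 0 higher in NCI-H1581R. In NCI-H1703R 1 was lower, FGFR1 itself, and 0 were higher. Telomeric of UNC5D, 14 of 151 genes were lower and 18 higher in NCI-H1581R, and 8 were lower and 11 higher in NCI-H1703R. The called member nearest the telomere was ZNF703 in both lines, and the one nearest the centromere was SLC20A2 in NCI-H1581R and ADAM9 in NCI-H1703R.

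**Figure D5:**
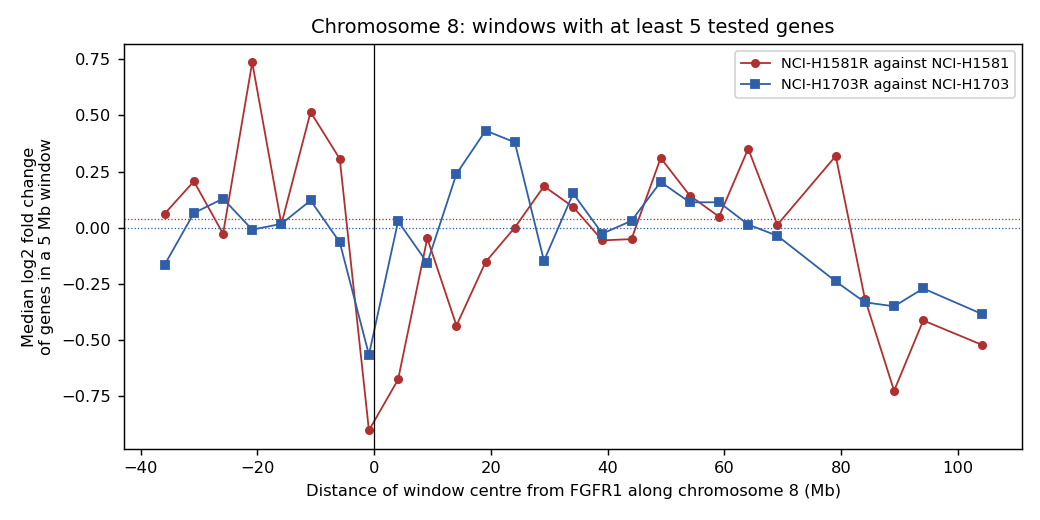
Median log2 fold change of resistant against sensitive cells over the tested genes of each 5 Mb window of chromosome 8 with at least 5 tested genes, by the distance of the window's centre from FGFR1 in Mb (circles, NCI-H1581 line; squares, NCI-H1703 line; dotted lines, median of all genes). The window that holds FGFR1 is the lowest in both lines, at -0.90 and -0.57, and windows near the far end of the long arm also lie below the dotted lines. Most tested genes of the FGFR1 window are members.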

How the data were processed

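The authors sequenced paired reads from 8 cultures, trimmed them with cutadapt per the labels, and ran Salmon with GRCh38 and then tximport to obtain values per gene. The deposited table holds estimated counts, in whole numbers and without normalisation. Tool versions, annotation, count scaling and strand settings are not given in the sources used here. Symbols, positions and exon lengths came from GENCODE v44. Groups and replicate numbers came from the labels.

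Tests covered every gene with a sum of at least 10 counts, with p-values adjusted over all of them. Fits used edgeR 4.0.16 in R 4.3.3 (TMM, quasi-likelihood F test, two-sided, legacy = FALSE), within each line for resistance, on the 4 sensitive libraries for the lines, and on all 8 for the interaction. Genes were called at an adjusted p under 0.1. The standard error is the size of the log2 fold change divided by the square root of F. The labels state that the procedure was repeated for the second replicate, and replicate differences of the same number correlated positively within a line (r = 0.13 for NCI-H1581 with NCI-H1581R, r = 0.36 for NCI-H1703 with NCI-H1703R, across 12102 genes, which are not independent) and negatively across lines (-0.42 to -0.02). No replicate was a copy of another: chi-square per degree of freedom between replicates ran from 27.5 to 121.5.

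Alternatives were DESeq2 1.42.0, RLE normalisation, no filter, at least 10 counts in every library, an adjusted p under 0.05, the replicate block, 1 fit of all 8 libraries and leaving out each library. Legacy quasi-dispersions and the block within each line were added after seeing the data. Scripts were tested on simulated data. Members, groups and marker lists were chosen with earlier results of these data known. The naming rule took members called in either resistant variant, those called with at least 8-fold difference between the sensitive lines, the 9 tested members nearest to FGFR1 and members under the filter. Correlation of members with FGFR1, part of that rule, is not reported because the libraries form 2 clusters by line. Copy number arrays and protein data of the study were not used here.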

Additional observations from a re-analysis of the deposited data

Results flagged for a closer look

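Of the 44 members tested, 9 had a change with resistance that differed between the 2 lines by the interaction test of edgeR (adjusted p under 0.1), always with the lower value in NCI-H1581R. Among genes distal to FGFR1, the log2 fold change in NCI-H1703R minus that in NCI-H1581R was 1.28 for ADGRA2, 1.06 for PLPBP, 0.76 for EIF4EBP1 and 0.65 for ERLIN2. Among genes from GOLGA7 to HGSNAT, it was 1.25 for IKBKB, 1.103 for SLC20A2, 1.07 for AP3M2, 0.96 for VDAC3 and 0.90 for GPAT4. With the replicate number as a block 8 members were called in this comparison, all of the 9 but VDAC3, and with the block set within each line 12. Line and culture medium cannot be told apart.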

How the results depend on the processing

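No member called in any of the 4 comparisons changed its direction under any alternative. Calls were 23 in NCI-H1581R and 15 in NCI-H1703R, and leaving out 1 library gave 6 to 27 and 1 to 14, all of them lower (the lone library left in a variant is assumed to vary like the other variant). The replicate block gave 24 called members in NCI-H1703R, 5 of them higher, against 15 and 0, and moved no other count of called members by over 1.5 times. In the interaction (9 called, 9 above 0, and 12 of 44 values below 0), DESeq2 called 17 members (16 above 0, 1 below), at least 10 counts in every library gave 14 called, all 14 above 0, with 7 values below 0, and legacy quasi-dispersions called 1 below 0. Leaving out 1 library gave 6 to 19 called, 6 to 18 above 0 and 0 to 1 below. Uncalled values near 0 changed sign: LETM2 in NCI-H1581R lay between -0.63 and 0.081, and DDHD2 in the interaction between -0.10 and 0.20. Between the sensitive lines no count moved by over 1.5 times. The cause of these shifts was not tested. Members under 10 counts in total could not be compared at this depth.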

Other observations

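Elsewhere on chromosome 8, the window from 140 to 145 Mb, at the far end of the long arm, also held many lower genes: 30 of 89 in NCI-H1581R (median log2 fold change -0.52) and 29 of 89 in NCI-H1703R (-0.38), with 1 and 0 higher. On the short arm, the window from 15 to 20 Mb had 6 of 18 genes higher and 0 lower in NCI-H1581R (median 0.74), against 1 higher and 0 lower in NCI-H1703R (-0.01). Centromeric of HGSNAT, over the whole remaining chromosome, 52 of 358 genes were lower in each resistant variant, and 30 and 24 were higher. Over all genes tested, 7.44% were lower in NCI-H1581R and 7.67% in NCI-H1703R. On chromosome 8 as a whole these shares were 16.5% and 13.6%. Other chromosomes had larger ones: chromosome 16 with 20.5% in NCI-H1581R, and chromosomes 18 and 19 with 17.2% and 14.8% in NCI-H1703R.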
